A study of Homo sapiens with 12 samples.

Results

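The comparison described here is CPI203 added on top of an IRAK inhibitor: 3 Combo arrays were set against 3 IRAKi arrays, paired by cell line, out of 12 arrays in the series. The members are all genes that could be tested, 13120 of the 18239 genes with a probe set of their own. RNA was measured on Affymetrix expression arrays. The cells were OCI-LY3, OCI-HBL1 and OCI-LY10, established human lines of diffuse large B cell lymphoma, an aggressive cancer, of its activated B cell-like type with constant NF-kB signalling. Combo cells received CPI203, an inhibitor of BET bromodomain proteins, at 500 nM together with the IRAK inhibitor at 50 µM, and their label time is 24 h. IRAKi cells received the IRAK inhibitor alone at 50 µM, and their label time is 6 h. The treatment protocol gives 18 h of CPI203 and 6 h of the IRAK inhibitor, whose chemical identity is not given in the sources used here. The other arrays are CPI203 alone (500 nM, 24 h) and Control (24 h, with nothing further stated), 3 arrays each. Every group holds 1 array for each line, so the replicates are cell lines, and the p-values measure the spread between these lines. Since Combo and IRAKi differ in label time as well as in CPI203, the drug and the time cannot be told apart in this comparison.

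BET proteins, such as BRD2 and BRD3, bind acetylated histones and help the elongation kinase P-TEFb, made of CDK9 and a cyclin T, to release paused RNA polymerase II. HEXIM1, with the 7SK RNA and its binding proteins LARP7 and MEPCE, holds P-TEFb inactive, and HEXIM1 RNA often serves to gauge the action of BET inhibitors. Toll-like receptors signal through the adaptor MYD88 and the IRAK kinases to TRAF6, the TAK1 complex and the IKK kinases, which free NF-kB to drive B cell survival genes. In this lymphoma the MYD88 branch is often constantly active, and the series set out to study IRAK and BET inhibition together in such cells.

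The 6 arrays had medians between 4.64 and 4.72 on the log2 scale and correlated with each other at 0.931 to 0.985. The OCI-LY10 IRAKi array stood apart: its non-specific control probe sets averaged 4.00, against 3.64 to 3.79 on the other 11 arrays. For many of the results below the value without it is also given. Poly-A RNA spiked into the samples read higher in Combo than in IRAKi by 0.49 in OCI-LY3 and 0.33 in OCI-LY10 and stood at -0.06 in OCI-HBL1 (mean 0.26 ± 0.28, SD, n = 3). The 3′ minus 5′ signal of ACTB, a measure of RNA integrity, moved by -0.18, -0.12 and -0.31 in the 3 lines; its part in the results was not tested. The B cell markers CD79A, CD79B, PAX5, MS4A1 and CD22 were above the filter level of 4.20 on all 6 arrays, and so were IRF4, PIM1, CCND2 and FOXP1, markers of the activated B cell-like type. Of the markers of other cell types, CD3D, CD2, CSF1R, FCGR3A, COL1A1 and COL1A2 stayed at or below 4.20 on all 6 arrays, and the highest of the rest was the keratin gene KRT8 at 6.59.

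Between Combo and IRAKi, 2456 of the 13120 genes tested differed (18.7%), with 1077 higher (8.21%) and 1379 lower (10.5%) in Combo than in IRAKi (limma, adjusted p below 0.05). Of these, 2452 moved the same way in all 3 lines, against 6537 of all genes tested. The changes were mostly modest: the median log2 change was 0.73 among genes that rose and -0.71 among those that fell, and 273 rose and 290 fell by at least 2-fold. At least 4-fold changes numbered 21 upward and 12 downward. The genes that rose had a median IRAKi level of 7.42 and those that fell of 8.30, against 6.69 for genes not called. In 83 of the risen genes the IRAKi mean lay below the filter level, so their rise may be larger than measured, and in 17 of the fallen genes the Combo mean did. In bulk RNA, fewer cells of a type and less RNA per cell cannot be told apart.

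How many genes passed depended on single arrays and lines. Without the OCI-LY10 IRAKi array 1487 genes were called (11.3%; 562 higher, 925 lower), 1381 of them among the 2456, and all 2456 kept their sign. Without OCI-LY3, OCI-HBL1 or OCI-LY10 the counts were 526, 1704 and 730, and 329 genes (129 higher, 200 lower) passed in each of these 3 fits. Scaling to the poly-A spike-ins moved the median of all genes by -0.26, and 345 then rose and 1917 fell; the medians of the gene lists below moved down with it. Values below are on the deposited scale, and values of the 3 lines are given in the order OCI-LY3, OCI-HBL1, OCI-LY10. Shares of called members in each list stand beside the 8.21% that rose and the 10.5% that fell over all genes tested.

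**Figure D1:**
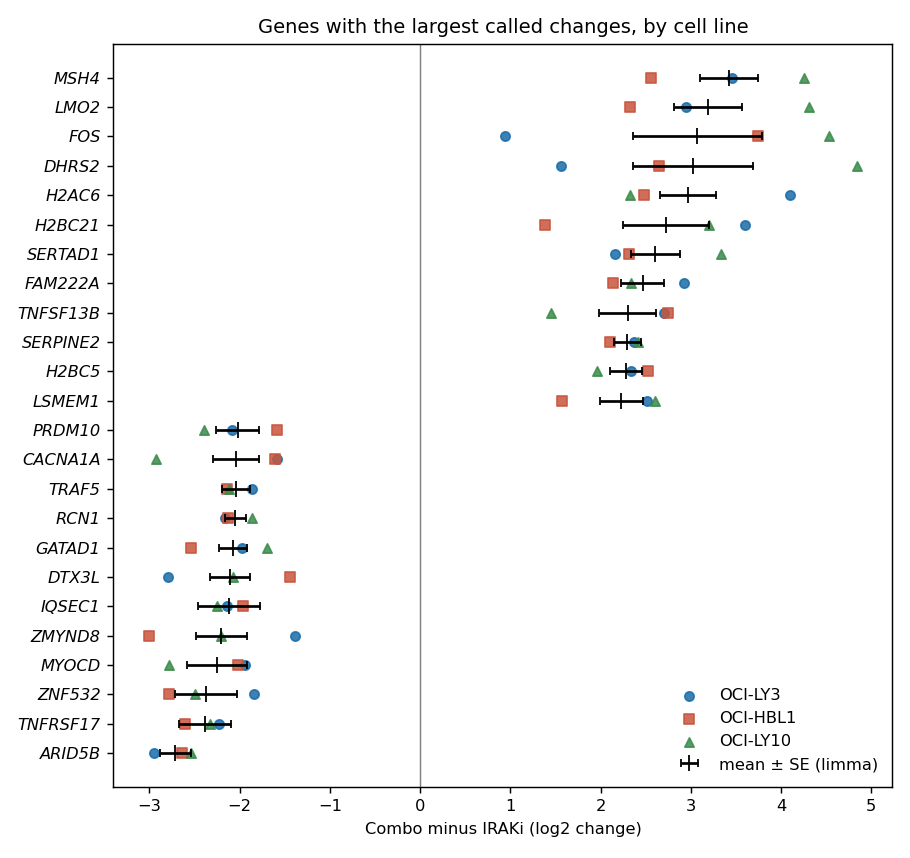
Log2 change of Combo minus IRAKi for the 12 genes with the largest rise and the 12 with the largest fall among called genes with the same sign in every line, with 1 point for each cell line and a bar for the mean of 3 lines. The largest measured rises are those of MSH4 (3.42) and LMO2 (3.19), whose IRAKi means lie below the filter level, and the 3 lines lie furthest apart for FOS, DHRS2 and H2BC21.

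The genes that rose furthest included several that were near background with the IRAK inhibitor alone. MSH4, a meiotic member of the MutS mismatch repair family, had log2 levels of 7.52, 6.64 and 8.13 in Combo, against 4.06, 4.07 and 3.88 in IRAKi. The groups were far apart in every line, with a log2 change of 3.42 ± 0.32 (SE, n = 3, adjusted p = 0.000498). All 3 IRAKi values lay below the filter level of 4.20, so the rise may be larger than measured. LMO2, a LIM-domain transcription cofactor known from germinal centres, stood at 7.25, 6.11 and 8.10 in Combo and 4.31, 3.78 and 3.79 in IRAKi (3.19 ± 0.37, adjusted p = 0.00100); a further probe set of LMO2, with a mean level of 4.18, showed a change of -0.09. TNFSF13B, which encodes the B cell survival ligand BAFF, had 6.78, 6.35 and 8.03 in Combo, against 4.07, 3.61 and 6.59 in IRAKi. Each line gained TNFSF13B (2.30 ± 0.31, adjusted p = 0.00176), although IRAKi OCI-LY10 lay above Combo OCI-HBL1, so the groups overlapped.

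Other large rises were those of SERPINE2, a secreted serine protease inhibitor (2.29 ± 0.15, adjusted p = 0.000176), the membrane protein gene LSMEM1 (2.23 ± 0.24) and FAM222A (2.46 ± 0.24). These 3 genes passed in all 3 fits that left out a line. FOS, a subunit of the AP-1 transcription factor, read 5.48, 9.10 and 10.24 in Combo, against 4.54, 5.36 and 5.71 in IRAKi. Its rise was concentrated in OCI-HBL1 and OCI-LY10, where it reached 3.75 and 4.53, against 0.94 in OCI-LY3 (mean 3.07 ± 0.71, adjusted p = 0.0165). FOS no longer passed without OCI-HBL1 (adjusted p = 0.128), OCI-LY10 (0.144) or the OCI-LY10 IRAKi array (0.0656). DHRS2, a dehydrogenase/reductase gene, rose by 3.02 ± 0.66 (adjusted p = 0.0132), with single-line changes of 1.56, 2.65 and 4.84, and was likewise lost without OCI-HBL1 (0.0864), OCI-LY10 (0.0521) or that array (0.0599).

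ARID5B, a DNA-binding chromatin regulator, fell furthest, with 4.43, 5.85 and 6.64 in Combo, against 7.38, 8.50 and 9.18 in IRAKi (log2 change -2.71 ± 0.17, adjusted p = 0.000165). The groups did not overlap, and the 3 lines differed by little, at -2.95, -2.64 and -2.55. RCN1, a calcium-binding protein of the endoplasmic reticulum, had 6.43, 6.90 and 7.24 in Combo and 8.59, 9.03 and 9.10 in IRAKi (-2.05 ± 0.12, adjusted p = 0.000136). TRAF5, an adaptor of TNF receptors, had 7.09, 5.61 and 6.02 in Combo, against 8.96, 7.75 and 8.15 in IRAKi (-2.04 ± 0.15, adjusted p = 0.000246). Both falls were nearly equal in all lines.

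Among the other large falls, the zinc finger gene ZNF532 changed by -2.38 ± 0.34, the chromatin reader gene ZMYND8 by -2.20 ± 0.29, the GATA-type zinc finger gene GATAD1 by -2.07 ± 0.15 and the PR domain gene PRDM10 by -2.02 ± 0.24, each past the test also without any 1 line. ZMYND8 has 7 probe sets, of which 1 near background stood at 0.15. MYOCD, a transcriptional coactivator known from heart and smooth muscle, changed by -2.25 ± 0.33, the calcium channel gene CACNA1A by -2.04 ± 0.26 and the ARF exchange factor gene IQSEC1 by -2.12 ± 0.34, the last of which was lost without OCI-LY3 (adjusted p = 0.0517).

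Genes of the BET and P-TEFb machinery, listed with SERTAD1 as a gene known to respond to BET inhibitors, rose in part. Of 11 members tested, 5 rose (45.5%), 1 fell (9.09%) and 5 did not pass. The median log2 change was 0.53, against -0.000235 over all genes tested. By line it was 0.14, 0.58 and 0.75. Under poly-A scaling 3 rose and 2 fell, with a median of 0.27. HEXIM1 had 9.99, 9.62 and 10.48 in Combo, against 7.91, 8.51 and 8.42 in IRAKi, with no overlap. It rose 3.37-fold (1.75 ± 0.20, adjusted p = 0.000906), and its 4 other probe sets gave changes of 1.66 to 2.26. HEXIM2, its paralog, moved the other way, with 5.88, 5.31 and 5.67 in Combo and 6.49, 6.70 and 6.88 in IRAKi (-1.07 ± 0.17, adjusted p = 0.00351). The 300-base window around the HEXIM1 start is shown because HEXIM1 is the best-known marker of this response; RefSeq gives it as GRCh38.p14 chr17:45148225-45148524 on the plus strand, and capitals mark TATAAA and CCAAT on either strand.
HEXIM1: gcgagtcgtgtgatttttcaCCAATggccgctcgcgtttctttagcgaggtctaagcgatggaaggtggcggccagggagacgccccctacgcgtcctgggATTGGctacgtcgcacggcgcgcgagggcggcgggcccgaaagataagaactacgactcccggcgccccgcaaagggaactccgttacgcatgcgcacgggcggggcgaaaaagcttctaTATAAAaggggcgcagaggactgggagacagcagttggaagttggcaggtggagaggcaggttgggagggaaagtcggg

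SERTAD1, which encodes a CDK4-binding SERTA domain protein, and is no BET or P-TEFb component, was the member with the largest rise, at 10.22, 9.07 and 9.72 in Combo, against 8.06, 6.76 and 6.39 in IRAKi (2.60 ± 0.27, adjusted p = 0.000697). BRD2, itself a BET protein, had 11.04, 10.82 and 10.93 in Combo and 10.28, 9.93 and 10.07 in IRAKi, a small rise that was nearly the same in each line (0.84 ± 0.10, adjusted p = 0.00132). BRD3 did not pass (-0.02 ± 0.11, adjusted p = 0.92). CCNT2, a cyclin T of P-TEFb, rose by 1.15 ± 0.17 (adjusted p = 0.0023), although its 2 other probe sets stood at -0.04 and 0.40. AFF4, a scaffold of the super elongation complex, rose by 0.78 ± 0.13 (adjusted p = 0.00409), which no longer passed without OCI-LY3 (0.0594) or OCI-LY10 (0.0527). CDK9 at 0.53, CCNT1 at 0.36, MEPCE at 0.13 and LARP7 at -0.36 did not pass.

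**Figure D2:**
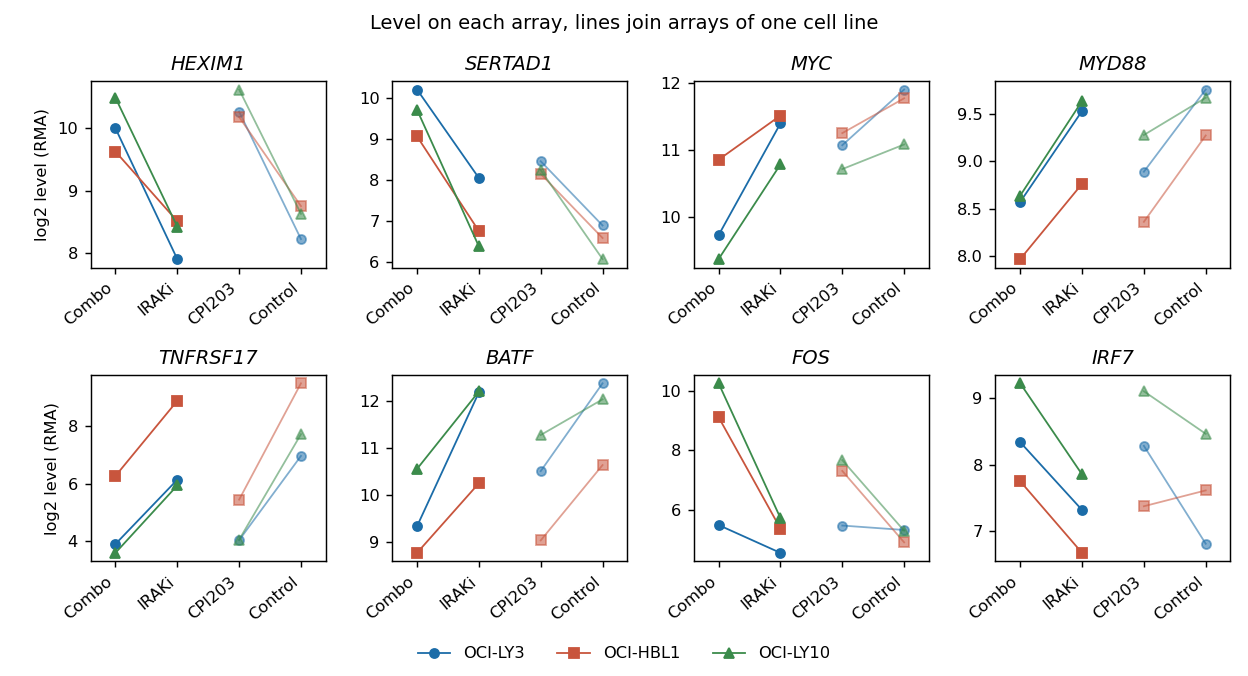
Log2 RMA level of 8 genes on each of 12 arrays, with Combo left of IRAKi and CPI203 left of Control and a line joining the arrays of 1 cell line. HEXIM1, SERTAD1, FOS and IRF7 are higher and MYC, MYD88, TNFRSF17 and BATF lower in Combo than in IRAKi in every line.

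Histone genes rose together. Of 21 members tested, 14 rose (66.7%) and 7 did not pass. In all 3 lines 19 were higher in Combo, against 3220 of all 13120 genes tested. The median change was 1.37, against -0.000235 over all genes. Probe sets of near-identical histone copies can share signal, so the level of a single copy is uncertain. H2AC6 had 9.22, 8.45 and 10.25 in Combo, against 5.12, 5.98 and 7.93 in IRAKi, and the groups did not overlap (2.96 ± 0.31, adjusted p = 0.000697). H2BC5 had 9.93, 7.76 and 10.40 in Combo and 7.59, 5.23 and 8.43 in IRAKi; each line gained about the same amount (2.28 ± 0.18, adjusted p = 0.000246), on base levels that set OCI-HBL1 below the others. H1-10, a linker histone, rose by 1.77 ± 0.19 (adjusted p = 0.000759). H2BC21 rose by 2.73 ± 0.48 (adjusted p = 0.00491), with 3.60, 1.38 and 3.20 in the 3 lines, and was lost without OCI-LY3 (0.0844) and OCI-LY10 (0.0609).

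Among the members that did not pass, the variant histone gene H2AZ1 had 13.24, 13.42 and 13.39 in Combo and 13.01, 13.32 and 13.43 in IRAKi, and H4C3 showed a change of 0.17 ± 0.10. The count of 14 was 6, 11 and 5 with OCI-LY3, OCI-HBL1 or OCI-LY10 left out and 7 without the OCI-LY10 IRAKi array. In OCI-HBL1 the median change of the list was 0.59, against 0.72 in OCI-LY3 and 1.63 in OCI-LY10.

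The promoter windows of histone genes often held TATA and CCAAT boxes, sequences near the start of many strongly regulated genes. TATAAA lay in 16 of the 20 windows of the list (80.0%) and in 11 of the 14 of its risen genes (78.6%). It lay in 6.7% of the windows of all genes tested and 12% of 27305 RefSeq promoter windows. CCAAT lay in 18 of the 20 windows and in 85.7% of the risen genes, against 36.7% for all genes tested and 35.7% of all windows. H2AC6 and H2BC21 are shown as the 2 histone genes with the largest rise (GRCh38.p14 chr6:26123922-26124221, plus strand, and chr1:149886633-149886932, minus strand), with TATAAA and CCAAT on either strand in capitals. The marked matches do not overlap each other.
H2AC6: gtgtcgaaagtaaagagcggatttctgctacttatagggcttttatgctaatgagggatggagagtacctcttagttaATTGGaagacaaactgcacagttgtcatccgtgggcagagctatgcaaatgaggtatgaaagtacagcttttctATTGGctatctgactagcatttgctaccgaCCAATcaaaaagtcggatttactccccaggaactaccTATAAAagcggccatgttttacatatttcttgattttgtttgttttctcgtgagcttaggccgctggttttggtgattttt
H2BC21: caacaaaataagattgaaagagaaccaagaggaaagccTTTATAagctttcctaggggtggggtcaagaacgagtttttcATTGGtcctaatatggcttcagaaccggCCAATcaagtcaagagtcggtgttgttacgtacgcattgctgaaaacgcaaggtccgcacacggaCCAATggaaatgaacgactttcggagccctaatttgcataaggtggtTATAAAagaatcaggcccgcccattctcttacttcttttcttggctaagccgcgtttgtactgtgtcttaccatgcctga

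**Figure D3:**
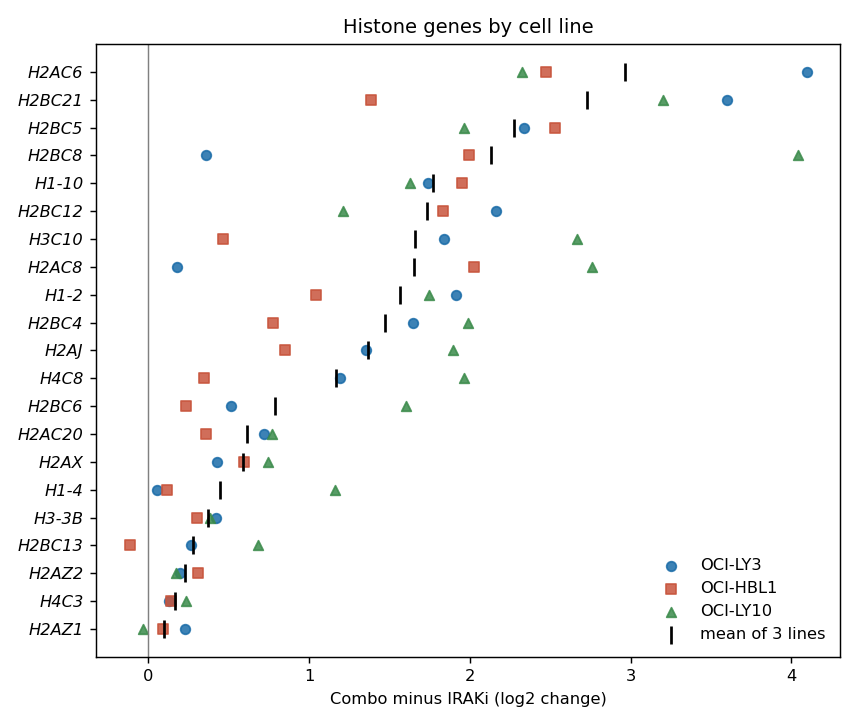
Log2 change of Combo minus IRAKi for the 21 histone genes tested, with 1 point for each cell line and a bar for the mean of 3 lines. H2AC6 reaches 4.09 in OCI-LY3, and H2BC8, H2AC8 and H2BC21 show the widest spread between lines.

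Inhibitors of cyclin-dependent kinases and growth arrest genes were listed together. Of 12 members tested, 8 rose (66.7%) and 4 did not pass. The median was 0.70 (5 risen and 0.45 under poly-A scaling). GADD45A, a stress-induced growth arrest gene, had 9.40, 7.25 and 10.13 in Combo, against 7.24, 5.34 and 9.07 in IRAKi (1.71 ± 0.21, adjusted p = 0.00131). CDKN2D, the INK4 inhibitor p19, had 8.98, 7.93 and 7.40 in Combo and 7.35, 6.27 and 6.33 in IRAKi, with the groups apart (1.45 ± 0.20, adjusted p = 0.00176). CDKN1A, the p53 target p21, had 11.14, 11.77 and 9.82 in Combo, against 10.23, 10.49 and 8.73 in IRAKi (1.1 ± 0.21, adjusted p = 0.00797; 0.0671 without OCI-LY10). PPP1R15A, a phosphatase subunit of the stress response, rose by 1.04 ± 0.16 (adjusted p = 0.00300; 0.0574 without OCI-LY10). CDKN1B, at 0.42 ± 0.14, did not pass (adjusted p = 0.0695). Nor did CDKN1C, which stood at 0.0032 with a mean level of 4.10, near background. The count of 8 was 5, 9 and 3 with OCI-LY3, OCI-HBL1 or OCI-LY10 left out.

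In the list of cyclins and CDKs, which also holds E2F2 and RBL2, 4 of 20 fell (20%) and 1 rose (5%), with a median of -0.15. Over all genes tested 10.5% fell and 8.21% rose. E2F2, an activating E2F factor, had 6.10, 6.78 and 6.24 in Combo, against 7.33, 8.11 and 6.97 in IRAKi (-1.10 ± 0.25, adjusted p = 0.0164), and RBL2, a pocket protein, fell by 0.65 (SE 0.11, adjusted p = 0.00478). CDK4 stood at -0.50 ± 0.13 and CDK1 at 0.36 ± 0.11 (adjusted p = 0.0279 and 0.0440), while CCNA2 showed 0.07 and did not pass. E2F2 was lost without OCI-LY3 (0.0569) and OCI-HBL1 (0.112), and RBL2 without OCI-LY3 (0.0665) and OCI-LY10 (0.0616). CDK4 (0.0726 to 0.168) and CDK1 (0.0805 to 0.319) were lost in each fit that left out a line or the OCI-LY10 IRAKi array. Without OCI-HBL1, OCI-LY10 or the OCI-LY10 IRAKi array 2, 1 and 2 falls passed, and without OCI-LY3 limma called 0 of the 20 lower, with 3 at an unadjusted p below 0.05.

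DNA replication genes fell in part: 10 of 33 fell (30.3%) and 23 did not pass, with a median of -0.13. POLE2, a subunit of DNA polymerase epsilon, had 7.37, 7.90 and 5.6 in Combo, against 8.48, 8.72 and 6.98 in IRAKi (-1.10 ± 0.17, adjusted p = 0.00312; 0.0593 without OCI-LY3). MCM2, of the replicative helicase, had 8.99, 9.85 and 8.84 in Combo and 9.99, 10.33 and 9.97 in IRAKi (-0.87 ± 0.14, adjusted p = 0.00385; 0.0657 without OCI-LY3, 0.0710 without OCI-LY10), and POLD3 of polymerase delta fell by 0.75 (SE 0.11, adjusted p = 0.00280). LIG1 and POLD1 each showed a change of 0.02. The count of 10 was 1, 9 and 3 with OCI-LY3, OCI-HBL1 or OCI-LY10 left out and 7 without the OCI-LY10 IRAKi array.

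Of 24 mitosis genes, 5 fell (20.8%), 1 rose (4.17%) and 18 did not pass, with a median of -0.09. The shares over all genes tested were 10.5% and 8.21%. The kinetochore gene SPC25 fell by 0.92 (SE 0.24, adjusted p = 0.0279) and PRC1, a spindle midzone protein, by 0.54 (SE 0.12, adjusted p = 0.0114), while the checkpoint kinase gene BUB1 rose by 0.45 ± 0.13 (adjusted p = 0.0406) and TOP2A showed 0.02. SPC25 was lost without OCI-LY3 (0.178), OCI-LY10 (0.0948) or the OCI-LY10 IRAKi array (0.0616), PRC1 without OCI-LY3 (0.101), OCI-HBL1 (0.0504) or OCI-LY10 (0.0979), and BUB1 in all 4 of these fits (0.0688 to 0.273). Of the 5 falls, 3 passed without OCI-HBL1 and 1 without the OCI-LY10 IRAKi array. Without OCI-LY3 or without OCI-LY10 limma called 0 of the 24 lower, with 6 at an unadjusted p below 0.05 in each.

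MYC, the growth-promoting transcription factor, fell and its antagonist MXD1 rose. MYC had 9.73, 10.85 and 9.37 in Combo, against 11.39, 11.51 and 10.78 in IRAKi, and was lower in every line although Combo OCI-HBL1 lay just above IRAKi OCI-LY10 (-1.24 ± 0.21, adjusted p = 0.00447). MYC no longer passed without OCI-LY3 (adjusted p = 0.0671) or OCI-LY10 (0.0680). MXD1, which competes with MYC for their partner MAX, had 7.19, 6.90 and 7.80 in Combo and 5.67, 5.94 and 4.58 in IRAKi (1.90 ± 0.41, adjusted p = 0.0115), a call also lost without OCI-LY3 (0.0593) and OCI-LY10 (0.0952). Without the OCI-LY10 IRAKi array the change of MXD1 was 1.34 (limma, adjusted p = 0.0300). MLX, a partner of the MXD and MLXIP proteins, fell by 0.67 (SE 0.13, adjusted p = 0.00750; 0.0569, 0.0802 and 0.0558 with OCI-LY3, OCI-HBL1 or OCI-LY10 left out). The other 7 of 10 members did not pass: MXD3, MXD4 and MXI1 stood at 0.54, 0.53 and 0.46, and MAX, MGA, MLXIP and MNT at 0.10, -0.08, -0.15 and -0.23. A further MGA probe set, with a mean level of 7.50, stood at -0.62, and another, with a mean level of 4.25, at -0.41. In the network 1 of 10 members rose (10%) and 2 fell (20%), against 8.21% and 10.5% over all genes tested. Its median was 0.0084 and turned to -0.25 under poly-A scaling.

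Ribosome biogenesis genes and other known MYC targets had a median of -0.46, and 13 of 30 fell (43.3%) and 17 did not pass. SLC19A1, the reduced folate carrier, had 5.39, 6.34 and 5.17 in Combo, against 7.43, 7.17 and 6.53 in IRAKi, with no overlap (-1.41 ± 0.19, adjusted p = 0.00173). POLR1B, the second-largest subunit of RNA polymerase I, had 8.33, 8.22 and 8.61 in Combo and 9.83, 9.13 and 9.33 in IRAKi (-1.05 ± 0.16, adjusted p = 0.00307; 0.0593 without OCI-LY3). RRS1 and PPAN, factors of large ribosomal subunit assembly, fell by 1.02 (SE 0.11, adjusted p = 0.000856) and 0.97 (SE 0.13, adjusted p = 0.00147).

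NOLC1, a nucleolar protein, and LDHA, which encodes lactate dehydrogenase, each showed a change of -0.02 and did not pass. The count of 13 was 4, 11 and 8 with OCI-LY3, OCI-HBL1 or OCI-LY10 left out and 11 without the OCI-LY10 IRAKi array. By line the median was -0.59, -0.21 and -0.33. CACGTG, the E-box that MYC and MAX bind, lay in 8 of the 23 promoter windows of the list (34.8%). It lay in 3 of the 10 windows of its fallen genes (30.0%), a share no higher than that of the whole list. The share was 9.97% for all genes tested and 7.43% for all windows.

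The MYD88-IRAK pathway, which the IRAK inhibitor acts on in both groups, fell at several receptors and at the adaptor. Of 23 members, 6 fell (26.1%), 2 rose (8.7%) and 15 did not pass, with a median of -0.19. TLR10, a Toll-like receptor of B cells, had 7.39, 6.58 and 4.51 in Combo, against 8.50, 8.33 and 5.64 in IRAKi (-1.33 ± 0.17, adjusted p = 0.00139). MYD88 itself had 8.57, 7.97 and 8.64 in Combo and 9.53, 8.76 and 9.63 in IRAKi, and no Combo value reached an IRAKi value (-0.92 ± 0.13, adjusted p = 0.00189). Both passed in all 3 fits that left out a line.

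The DNA sensor TLR9 changed by -1.0 ± 0.27 (adjusted p = 0.0297), with -1.49, -1.35 and -0.16 in the 3 lines, and was lost without OCI-LY3 (0.248) and OCI-HBL1 (0.149). TLR4, the lipopolysaccharide receptor, changed by -0.96 ± 0.26 (adjusted p = 0.0300; 0.195 without OCI-HBL1, 0.207 without OCI-LY10 and 0.108 without the OCI-LY10 IRAKi array), and its 2 other probe sets, both with a mean level of 4.52, stood at 0.22 and -0.23. UNC93B1, which carries nucleic acid-sensing receptors to endosomes, fell by 0.59 (SE 0.12, adjusted p = 0.00915), and the kinase gene IKBKB by 0.66 (SE 0.17, adjusted p = 0.0243). UNC93B1 was lost without OCI-LY3 (0.0741) and OCI-LY10 (0.104), and IKBKB without OCI-LY3 (0.186) and OCI-HBL1 (0.167). The risers were the ubiquitin ligase gene PELI1, at 0.88 ± 0.18 (adjusted p = 0.00998), and the TAK1 adaptor gene TAB3, at 0.75 ± 0.19 (adjusted p = 0.0259). PELI1 was lost without OCI-LY3 (0.0557) and OCI-LY10 (0.0815), and TAB3 without OCI-LY3 (0.171), OCI-LY10 (0.183) or the OCI-LY10 IRAKi array (0.0919).

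Among the kinases, IRAK1 had 8.77, 9.37 and 8.68 in Combo, against 9.86, 9.50 and 9.01 in IRAKi, and did not pass (-0.52 ± 0.17, adjusted p = 0.0585). IRAK2 at -0.07 and IRAK3 at 0.15 did not pass, with levels between 3.72 and 5.56, and IRAK4 was not analysed here. Downstream, TRAF6 at -0.26, TAB1 at -0.30, TAB2 at 0.37, MAP3K7, which encodes TAK1, at 0.37, CHUK at 0.08 and IKBKG at -0.49 did not pass. Nor did TLR1, TLR2, TLR6, TIRAP, TOLLIP and PELI2, with changes between -0.67 and 0.81; TLR7 and TLR8 were below the filter. Of the 6 falls, 3, 3 and 4 passed with OCI-LY3, OCI-HBL1 or OCI-LY10 left out.

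Of 28 NF-kB targets and inhibitors, 5 fell (17.9%), 1 rose (3.57%) and 22 did not pass, against 10.5% fallen and 8.21% risen over all genes tested. The median was -0.15 and turned to 0.056 without OCI-LY3. The inhibitor gene NFKBIA, itself an NF-kB target, had 13.31, 11.95 and 12.41 in Combo, against 12.82, 10.93 and 11.59 in IRAKi (0.78 ± 0.21, adjusted p = 0.0290), and was lost without OCI-LY3 (0.0995), OCI-LY10 (0.161) or the OCI-LY10 IRAKi array (0.0595). ICAM1, an adhesion molecule, had 6.37, 5.42 and 5.05 in Combo and 8.55, 6.15 and 5.97 in IRAKi (-1.28 ± 0.24, adjusted p = 0.00686; 0.0541 without OCI-LY10). The adaptor gene TRAF1 had 5.73, 4.35 and 4.57 in Combo, against 8.66, 4.76 and 6.03 in IRAKi, and its mean change of -1.60 ± 0.38 (adjusted p = 0.0176) was lost without OCI-LY3 (0.150) and OCI-LY10 (0.115). CD40, at 0.05 ± 0.13, and NFKBIE, at -0.01 ± 0.28, did not pass.

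The NF-kB list moved differently by line, with medians of -0.48, 0.0044 and 0.059. Of the 5 falls, 1 passed without OCI-LY3, and without OCI-LY10 limma called 0 of the 28 lower, with 6 at an unadjusted p below 0.05. The cytokine genes IL10 and IL6, named after their values were seen, also differed by line: IL10 read 5.23, 3.88 and 9.42 in Combo and 9.59, 4.81 and 9.13 in IRAKi, and IL6 read 5.58, 3.96 and 4.07 in Combo and 8.71, 3.97 and 4.09 in IRAKi. Their large single-line changes of -4.37 and -3.13 were in OCI-LY3, and neither passed (adjusted p = 0.133 and 0.233). In OCI-HBL1 and OCI-LY10 IL6 lay below the filter level of 4.20 in Combo and in IRAKi, so a fall could hardly show there.

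In the JAK-STAT3 loop, through which IL6 and IL10 act, 4 of 19 fell (21.1%) and 15 did not pass, with a median of -0.25. BATF, an AP-1 factor that is high in this lymphoma type, had 9.32, 8.76 and 10.54 in Combo, against 12.17, 10.24 and 12.19 in IRAKi, and passed without any 1 line (-1.99 ± 0.28, adjusted p = 0.00196). The receptor genes IL6R and IL21R fell by 1.12 (SE 0.21, adjusted p = 0.00655) and 0.93 (SE 0.19, adjusted p = 0.00878); both calls were lost without OCI-LY3 (0.105 and 0.0648) and without OCI-LY10 (0.0996 and 0.0605). BCL3, an atypical IkB protein, was called at -1.64 ± 0.47 (adjusted p = 0.0375) although OCI-HBL1 stood at 0.04. Its 3 other probe sets read 0.02 to 0.21, and the call was lost without OCI-LY3 (0.231), OCI-LY10 (0.261) or the OCI-LY10 IRAKi array (0.129). IL10RA, at 0.03, and SOCS1, at -0.04, did not pass. The 4 falls became 1 without OCI-LY3 and 1 without OCI-LY10.

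B cell receptor signalling and identity genes fell more often than they rose: 11 of 33 fell (33.3%), 3 rose (9.09%) and 19 did not pass, with a median of -0.27. BCL11A, a zinc finger factor of early B cell development, had 9.77, 9.56 and 8.59 in Combo, against 11.33, 10.93 and 11.24 in IRAKi, with no overlap (-1.86 ± 0.23, adjusted p = 0.00125); its other 7 probe sets ran from -1.96 to 0.18. IKZF3 (Aiolos), an Ikaros family factor, had 6.72, 5.22 and 5.91 in Combo and 7.59, 6.87 and 7.80 in IRAKi (-1.47 ± 0.21, adjusted p = 0.00234). IKZF1 (Ikaros) fell by 1.52 (SE 0.25, adjusted p = 0.00392; 0.0680 without OCI-LY3, 0.0584 without OCI-LY10).

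CD72, an inhibitory co-receptor of B cells, fell by 1.37 (SE 0.32, adjusted p = 0.0167; 0.0566 without OCI-LY3, 0.147 without OCI-LY10, 0.0731 without the OCI-LY10 IRAKi array). LMO2, described above, was the largest rise, and the tetraspanin gene CD81 and the signalling adaptor gene BCL10 rose by 0.62 ± 0.16 and 0.47 ± 0.14 (adjusted p = 0.0235 and 0.0415). CD81 was lost without OCI-LY3 (0.0567), OCI-HBL1 (0.121), OCI-LY10 (0.196) or the OCI-LY10 IRAKi array (0.0985), and BCL10 without OCI-LY3 (0.314), OCI-LY10 (0.261) or that array (0.123). BCL6 and BACH2 each showed changes within 0.03 of 0. Further probe sets of BCL6 ran from -0.36 to 0.11, and that of BACH2 stood at 0.27. The 11 falls numbered 3, 9 and 4 with OCI-LY3, OCI-HBL1 or OCI-LY10 left out and 6 without the OCI-LY10 IRAKi array.

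TNFRSF17, the plasma cell receptor BCMA, was the largest fall in the plasma cell list, with 3.91, 6.27 and 3.61 in Combo, against 6.14, 8.87 and 5.94 in IRAKi. In OCI-LY3 and OCI-LY10 the Combo values were below the filter level of 4.20, so the fall there may be larger than measured (-2.39 ± 0.29, adjusted p = 0.00119). TNFRSF13B, the related receptor TACI, had 9.62, 10.47 and 10.03 in Combo and 11.05, 11.07 and 11.35 in IRAKi (-1.12 ± 0.16, adjusted p = 0.00229; 0.0569 without OCI-LY3, 0.0505 without OCI-LY10). CREB3L2, a factor of the secretory pathway, fell by 0.74 (SE 0.13, adjusted p = 0.00511; 0.0587 without OCI-LY3). The other 14 of 17 plasma cell and secretory genes did not pass, with DERL3 and ERN1 at -0.01 and 0.01 and a list median of -0.0059. The 3 falls were 17.6% of the list, against 10.5% over all genes tested. The count of 3 was 1 without OCI-LY3.

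The MHC class II list, which also holds the regulator genes RFX5 and RFXAP, fell in part. Of 15 members 5 fell (33.3%) and 10 did not pass, with a median of -0.04. HLA-DMB, a peptide-loading chain, had 8.82, 8.0 and 8.45 in Combo, against 9.91, 9.17 and 10.10 in IRAKi, and the groups were apart (-1.30 ± 0.16, adjusted p = 0.00111). RFX5 and RFXAP, subunits of the RFX factor that binds class II promoters, changed by -1.17 ± 0.18 and -0.85 ± 0.18 (adjusted p = 0.00296 and 0.00991). RFX5 was lost without OCI-LY3 (0.0572), and RFXAP without OCI-LY3 (0.0892) and OCI-LY10 (0.114). The loading modulator gene HLA-DOA fell by 0.68 (SE 0.15, adjusted p = 0.0138; 0.146 without OCI-LY3, 0.123 without OCI-LY10, 0.0534 without the OCI-LY10 IRAKi array), and HLA-DPA1 had 13.57, 11.38 and 13.36 in Combo and 13.74, 11.14 and 13.45 in IRAKi, a change of -0.01. Of the 5 falls, 1 passed without OCI-LY3 and 2 without OCI-LY10.

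Interferon response genes fell in part: 11 of 32 fell (34.4%), 1 rose (3.12%) and 20 did not pass, with a median of -0.39. DTX3L, a ubiquitin ligase, had 6.67, 6.58 and 6.99 in Combo, against 9.46, 8.02 and 9.06 in IRAKi, with every Combo value below every IRAKi value (-2.10 ± 0.22, adjusted p = 0.000700). Its partner PARP9 had 6.22, 5.61 and 6.57 in Combo and 8.28, 7.54 and 8.43 in IRAKi (-1.95 ± 0.20, adjusted p = 0.000603). SAMD9L, an antiviral and growth-restricting factor, fell by 1.58 (SE 0.19, adjusted p = 0.00122) and IFIT5, an RNA-binding antiviral protein, by 1.41 (SE 0.22, adjusted p = 0.00308). These 4 passed in all 3 fits that left out a line.

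IRF7, the interferon regulator below endosomal Toll-like receptors, moved the other way, with 8.34, 7.75 and 9.22 in Combo, against 7.32, 6.67 and 7.85 in IRAKi (1.16 ± 0.27, adjusted p = 0.0181). It was lost without OCI-LY10 (0.164) and without the OCI-LY10 IRAKi array (0.0742). OASL at 0.04 and IFI6 at 0.03 did not pass. The 11 falls numbered 4, 8 and 5 with OCI-LY3, OCI-HBL1 or OCI-LY10 left out and 7 without the OCI-LY10 IRAKi array.

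The interferon-stimulated response element was searched as GAAA, any 2 bases and GAAA on both strands. It lay in 16 of the 25 promoter windows of the interferon list (64.0%) and in 4 of the 8 windows of its fallen genes (50.0%). The share was 2.88% for all genes tested and 3.65% for all 27305 windows. The windows of DTX3L (GRCh38.p14 chr3:122564088-122564387, plus strand) and IFIT5 (chr10:89414318-89414617, plus strand) are shown because both genes fell in all 3 fits that left out a line and hold the element, marked in capitals: 1 match in DTX3L and 3 in IFIT5. PARP9 and SAMD9L, which also passed in these fits, held 0 matches in the windows searched. PARP9 was searched in 1 window (chr3:122564735-122565034), which does not overlap that of DTX3L. Another PARP9 window, on the opposite strand, overlaps that of DTX3L by 137 bases. These include the DTX3L match, and this window was not searched for PARP9.
DTX3L: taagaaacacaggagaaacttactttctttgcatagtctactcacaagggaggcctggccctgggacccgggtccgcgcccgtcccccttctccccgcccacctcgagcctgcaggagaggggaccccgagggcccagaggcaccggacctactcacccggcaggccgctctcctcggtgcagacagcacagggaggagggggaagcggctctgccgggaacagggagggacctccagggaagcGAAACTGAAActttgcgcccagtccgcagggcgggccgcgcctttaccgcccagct
IFIT5: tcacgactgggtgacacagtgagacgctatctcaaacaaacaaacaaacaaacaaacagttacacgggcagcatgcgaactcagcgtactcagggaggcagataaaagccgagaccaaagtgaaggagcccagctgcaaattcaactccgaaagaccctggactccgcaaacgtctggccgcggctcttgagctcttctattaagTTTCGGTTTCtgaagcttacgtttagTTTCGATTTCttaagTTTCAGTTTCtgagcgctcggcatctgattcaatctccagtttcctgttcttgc

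**Figure D4:**
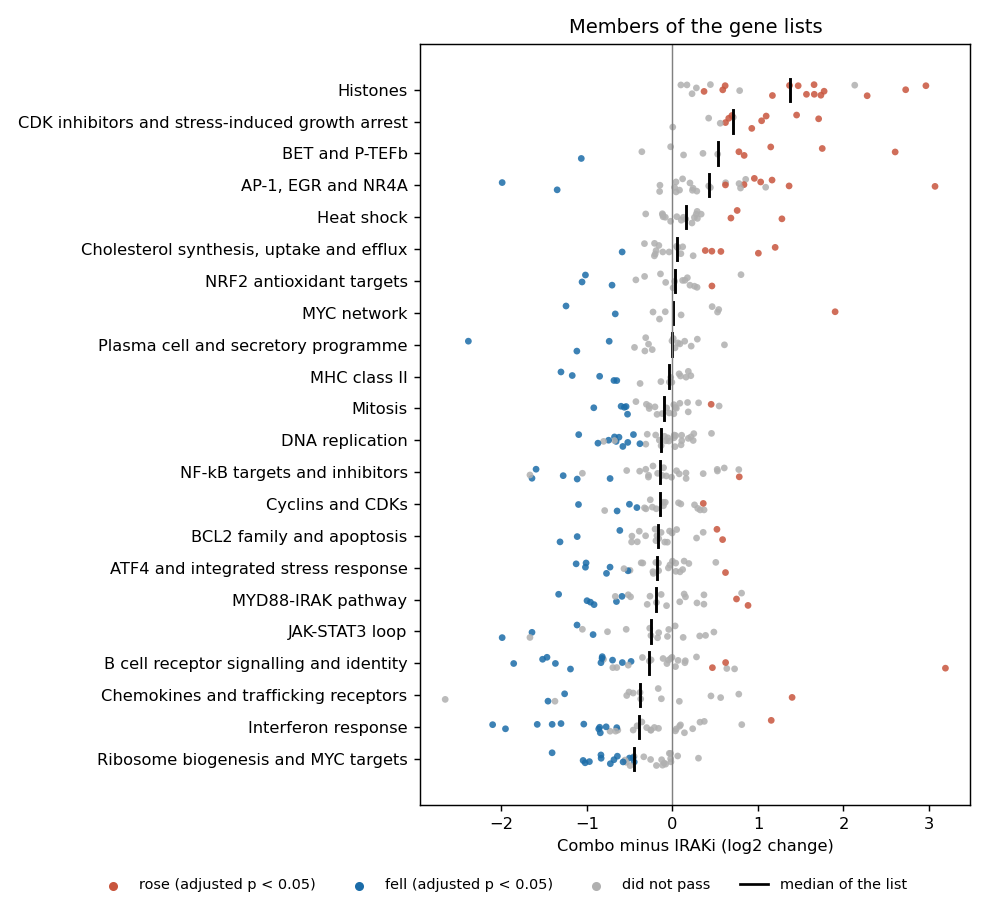
Log2 change of Combo minus IRAKi for every tested member of the 22 gene lists, ordered by list median, with members that rose in red, members that fell in blue, others in grey and the median as a bar. Histone genes (median 1.37) lie furthest to the right, and ribosome biogenesis (-0.46) and interferon response genes (-0.39) furthest to the left.

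The list of AP-1, EGR and NR4A genes was built around the immediate early factors. It also holds IER3 and ZFP36, which belong to none of these 3 families. Its median was positive at 0.42, with 7 of 27 risen (25.9%), 2 fallen (7.41%) and 18 not past the test. Under poly-A scaling 5 rose, with a median of 0.17. IER3, an early response survival gene, had 6.09, 6.54 and 7.42 in Combo, against 4.84, 5.11 and 6.01 in IRAKi, with nearly equal rises in all lines and no overlap (1.36 ± 0.12, adjusted p = 0.000358). EGR1, an early growth response factor, had 5.21, 10.79 and 11.51 in Combo and 4.28, 9.85 and 9.89 in IRAKi (1.16 ± 0.28, adjusted p = 0.0192). The RNA-decay factor gene ZFP36 rose by 1.03 ± 0.26 (adjusted p = 0.0243).

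EGR1 was lost without OCI-HBL1 (0.0887), OCI-LY10 (0.104) or the OCI-LY10 IRAKi array (0.0560), and ZFP36 in the same fits (0.123, 0.215 and 0.103). The falls were those of BATF and of its relative BATF3, which changed by -1.35 ± 0.26 (adjusted p = 0.00725; 0.0642 without OCI-LY10). JUN had 8.04, 7.50 and 8.33 in Combo and 8.94, 6.69 and 8.13 in IRAKi, opposite moves that averaged 0.04. The 7 rises became 3 without OCI-HBL1, 2 without OCI-LY10 and 4 without the OCI-LY10 IRAKi array, and the list's median by line was 0.0092, 0.56 and 0.70.

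Of 22 apoptosis genes, 3 fell (13.6%), 2 rose (9.09%) and 17 did not pass (median -0.17), shares near the 10.5% and 8.21% over all genes tested. Under poly-A scaling limma called 4 lower and 0 higher, with 0 higher at an unadjusted p below 0.05. BMF, a pro-apoptotic BH3-only protein, had 6.17, 5.75 and 5.61 in Combo, against 7.61, 6.69 and 7.18 in IRAKi, with no overlap (-1.32 ± 0.15, adjusted p = 0.000906); its 3 other probe sets, near background, stood between -0.09 and 0.23. CFLAR, which encodes the caspase-8 inhibitor FLIP, had 11.05, 10.85 and 10.60 in Combo and 12.49, 11.33 and 12.02 in IRAKi (-1.11 ± 0.21, adjusted p = 0.00695), and was lost without OCI-LY3 (0.114) and OCI-LY10 (0.0788). The anti-apoptotic gene MCL1 was called at 0.52 ± 0.15 (adjusted p = 0.0399) and the BH3-only gene PMAIP1 (NOXA) at 0.59 ± 0.17 (adjusted p = 0.0403). MCL1 was lost in each fit that left out a line (0.125 to 0.147) and without the OCI-LY10 IRAKi array (0.0573), and PMAIP1 without OCI-LY3 (0.236), OCI-LY10 (0.211) or that array (0.114). BCL2L2, a survival gene of the BCL2 family, changed by -0.62 ± 0.14 (adjusted p = 0.0172) and was lost without OCI-LY3 (0.0831), OCI-HBL1 (0.0878) or OCI-LY10 (0.0915). XIAP and TNFRSF10B, at -0.0039 and -0.03, did not pass. The 3 falls became 1 without OCI-LY3 and 1 without OCI-LY10.

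Of 16 chemokine and trafficking genes, 1 rose (6.25%), 2 fell (12.5%) and 13 did not pass, shares near the 8.21% and 10.5% over all genes tested. The median was -0.38, and -0.012 without OCI-LY3 and -0.75 without OCI-HBL1. CCL5, a T cell-attracting chemokine, had 5.18, 6.08 and 5.78 in Combo, against 4.29, 4.77 and 3.78 in IRAKi (1.40 ± 0.25, adjusted p = 0.00559; 0.0521 without OCI-HBL1). The egress receptor gene S1PR1 had 3.36, 4.51 and 5.62 in Combo and 3.56, 7.09 and 7.21 in IRAKi (-1.46 ± 0.45, adjusted p = 0.0497; 0.274 without OCI-HBL1, 0.202 without OCI-LY10, 0.0914 without the OCI-LY10 IRAKi array), while GPR183, which guides B cells in follicles, fell in OCI-LY3 by 2.15 and in OCI-LY10 by 1.5 (-1.26 ± 0.38, adjusted p = 0.0442; 0.324 without OCI-LY3, 0.179 without OCI-LY10, 0.0944 without the OCI-LY10 IRAKi array). In OCI-LY3 S1PR1 lay below the filter level of 4.20 in Combo and in IRAKi. Without the OCI-LY10 IRAKi array limma called 0 of the 16 lower, with 2 at an unadjusted p below 0.05. CXCL10, an interferon-induced chemokine named after its values were seen, read 5.73, 4.32 and 5.41 in Combo, against 10.06, 3.97 and 9.40 in IRAKi, and did not pass (-2.66 ± 1.04, adjusted p = 0.106). CXCR4, at 0.08, and CXCR3, at -0.13, did not pass.

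Genes of the ATF4 stress response fell in 6 of 26 cases (23.1%) and rose in 1 (3.85%), with a median of -0.18. TRIB3, a pseudokinase that restrains the response, had 7.10, 8.53 and 7.53 in Combo, against 8.28, 9.62 and 8.64 in IRAKi, and each line lost nearly the same amount (-1.13 ± 0.16, adjusted p = 0.00227). The amino acid transporter genes SLC7A1 and SLC7A11 changed by -1.01 ± 0.15 (adjusted p = 0.00259) and -1.02 ± 0.26 (adjusted p = 0.0240), and XPOT, a tRNA exporter, by -0.77 ± 0.11 (adjusted p = 0.00179; 0.0555 without OCI-LY3). SLC7A11 was lost without OCI-LY3 (0.0873), OCI-HBL1 (0.0955) or OCI-LY10 (0.0752). SESN2, a stress-induced regulator of growth signalling, rose by 0.62 ± 0.18 (adjusted p = 0.0366; 0.241 without OCI-LY3, 0.214 without OCI-LY10, 0.0961 without the OCI-LY10 IRAKi array). SLC7A5 and SLC3A2, at -0.0003 and -0.03, did not pass. The 6 falls became 2 without OCI-LY3 and 3 without OCI-LY10.

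Heat shock genes rose in 3 of 19 cases (15.8%, against 8.21% over all genes tested) and 16 did not pass. The median was 0.16 and turned to -0.10 under poly-A scaling. DNAJB4, a J-domain co-chaperone, had 8.93, 7.69 and 9.04 in Combo, against 7.40, 6.50 and 7.92 in IRAKi (1.28 ± 0.13, adjusted p = 0.000591). BAG3 and DNAJB1, also co-chaperones, rose by 0.76 ± 0.16 and 0.68 ± 0.14 (adjusted p = 0.00998 and 0.0101), and both were lost without OCI-HBL1 (0.0719 and 0.0643) and OCI-LY10 (0.115 and 0.128), which left 1 rise in each of these fits. HSPE1, at 0.05, did not pass.

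In cholesterol synthesis, uptake and efflux, 5 of 20 rose (25%) and 1 fell (5%), around a median of 0.052 that turned to -0.205 under poly-A scaling. MYLIP, a ubiquitin ligase of the LDL receptor, had 7.39, 6.08 and 6.03 in Combo, against 5.79, 5.42 and 4.70 in IRAKi (1.20 ± 0.18, adjusted p = 0.00259), and the isoprenoid enzyme gene IDI1 rose by 1.00 ± 0.16 (adjusted p = 0.00356; 0.0648 without OCI-LY3, 0.0537 without OCI-LY10). DHCR7, the last enzyme of the pathway, fell by 0.59 (SE 0.12, adjusted p = 0.00809; 0.129 without OCI-LY3, 0.0626 without OCI-HBL1), and SREBF1 and SQLE, at 0.05 and -0.04, did not pass. The 5 rises became 1, 3 and 1 with OCI-LY3, OCI-HBL1 or OCI-LY10 left out and 2 without the OCI-LY10 IRAKi array.

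In the list of NRF2 antioxidant targets, which also holds KEAP1, 3 of 17 fell (17.6%) and 1 rose (5.88%). Over all genes tested 10.5% fell and 8.21% rose. The median of the list was 0.026 and turned to -0.23 under poly-A scaling. KEAP1, the inhibitor of NRF2, had 8.16, 7.26 and 7.03 in Combo, against 9.22, 8.54 and 7.85 in IRAKi (-1.06 ± 0.13, adjusted p = 0.00139). GCLM, of glutathione synthesis, changed by -0.71 ± 0.13 (adjusted p = 0.00662; 0.0770 without OCI-LY3, 0.0638 without OCI-HBL1) and PGD by 0.46 ± 0.11 (adjusted p = 0.0194; 0.107, 0.0717 and 0.199 with OCI-LY3, OCI-HBL1 or OCI-LY10 left out, 0.0820 without the OCI-LY10 IRAKi array). TKT, at 0.03, did not pass. The 3 falls became 1, 1 and 2 with OCI-LY3, OCI-HBL1 or OCI-LY10 left out.

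CPI203 without the IRAK inhibitor gave changes of largely the same direction. CPI203 and Control arrays share a label time of 24 h and are not the arrays of Combo and IRAKi, so the comparisons share no sample. Both were tested in 1 fit that pools the spread over all 12 arrays, so their calls are not independent. CPI203 changed 1723 genes against Control (13.1%; 908 higher, 6.92%, and 815 lower, 6.21%); under poly-A scaling 165 were higher and 1530 lower. Of the genes called for Combo against IRAKi, 2341 (95.3%) had the same sign in CPI203 against Control, against 73% of all genes tested, and across genes the changes correlated at r = 0.753 (rho = 0.681), over genes that are not independent replicates. Genes called in both with the same direction numbered 1126, which is 45.8% of the calls for Combo against IRAKi and 65.4% of those for CPI203 against Control, and 1 gene was called in opposite directions, SMG5, a factor of nonsense-mediated decay (-0.46 in Combo against IRAKi, 0.60 in CPI203 against Control; named after its values were seen).

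**Figure D5:**
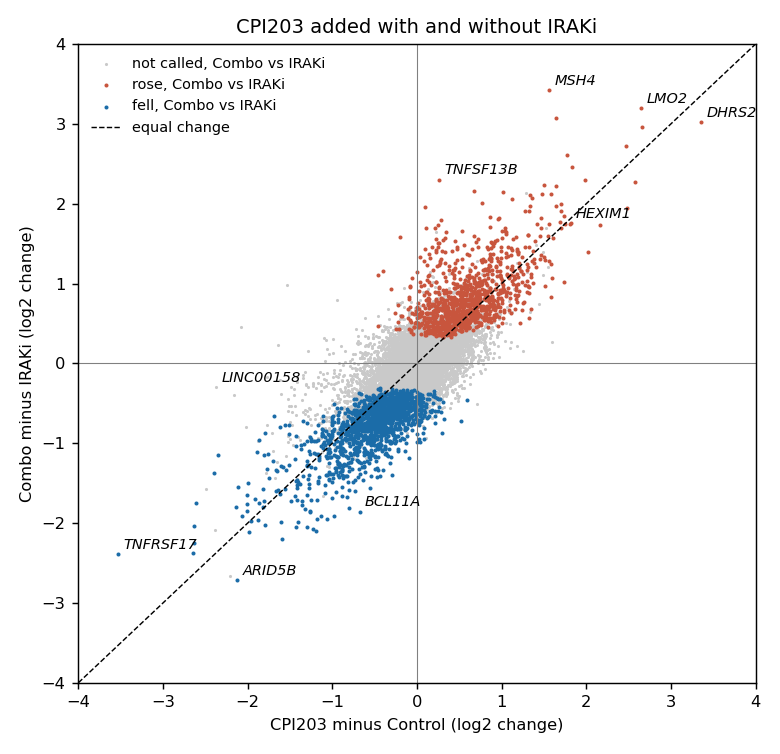
Log2 change of Combo minus IRAKi on the vertical axis against CPI203 minus Control on the horizontal axis, with 1 point for each of 13120 genes. The cloud follows the diagonal (r = 0.753 across genes), and LINC00158, the gene that passed the test of the difference, lies at the left, above the diagonal, at -2.37 on the horizontal axis and -0.30 on the vertical axis.

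The sizes were close for some named genes and apart for others, with Combo minus IRAKi given first and CPI203 minus Control after it. HEXIM1 changed by 1.75 in Combo against IRAKi and 1.81 in CPI203 against Control, H2BC5 by 2.28 and 2.57, TLR10 by -1.33 and -1.66, and SAMD9L by -1.58 and -1.64. MSH4 changed by 3.42 and 1.56, TNFSF13B by 2.30 and 0.25, CDKN1A by 1.1 and 0.13, CCL5 by 1.40 and 0.23 and MYC by -1.24 and -0.57. For none of these did the test of the difference itself pass: the smallest unadjusted p was that of TNFSF13B, 0.00102 (adjusted p = 0.440), and MSH4 had 0.00241 (adjusted p = 0.440). The difference passed for 1 gene of 13120 (0.00762%), the long non-coding RNA gene LINC00158, and 1085 genes had an unadjusted p below 0.05. Without the OCI-LY10 IRAKi array limma called 0 genes for the difference, with 1051 at an unadjusted p below 0.05.

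The gene lists, set side by side, had medians of 1.37 and 0.89 for histones, 0.70 and 0.64 for CDK inhibitors, -0.46 and -0.28 for ribosome biogenesis, -0.39 and -0.82 for the interferon response and 0.42 and 0.081 for AP-1, EGR and NR4A genes, each with Combo minus IRAKi first and CPI203 minus Control after it. Whether these medians differ was not tested. In the interferon list 14 of 32 members fell in CPI203 against Control, and in the ribosome biogenesis list 9 of 30 did. Over all genes tested 6.21% fell there.

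With 1 array against 1 array and no test, changes of at least 2-fold within a line were seen in 1065 genes in OCI-LY3 (419 higher, 646 lower), 657 in OCI-HBL1 (240 higher, 417 lower) and 1307 in OCI-LY10 (725 higher, 582 lower). The OCI-LY10 count rests on the IRAKi array that stood apart, and no value without it can be had. The changes of 2 lines correlated across genes at 0.517 for OCI-LY3 with OCI-HBL1, 0.602 for OCI-LY3 with OCI-LY10 and 0.513 for OCI-HBL1 with OCI-LY10. In 12 genes 1 line was at least 2-fold higher and another at least 2-fold lower. Of the 1652 genes whose groups did not overlap (12.6% of those tested), 1065 were among the 2456 called, so most of the called genes had overlapping levels.

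Risen and fallen genes differed little in length: the median RefSeq gene span was 33.8 kb for genes that rose, 29.4 kb for those that fell and 27.6 kb for genes not called. TATAAA lay in 9.42% of the promoter windows of risen genes and 4.86% of those of fallen genes, against 6.68% for genes not called. For CACGTG the shares were 10.4%, 13.9% and 9.39%.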

How the data were processed

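RNA from 3 lymphoma lines under 4 treatments was measured on 12 Affymetrix arrays. The deposited values are log2 intensities that the authors made by RMA in Affymetrix Expression Console 1.1, per the submitters' processing notes; RMA subtracts background, equalises the distributions of arrays and summarises probes, so a shift in total RNA is not kept. The unit of every value is log2 expression per probe set, and arrays give no read depth, so their number limits the precision. From these values, each gene was represented by its one-gene probe set with the highest mean, symbols were updated through the RefSeq gene table, and 13120 genes above the 40th percentile of all values (log2 4.20) on at least 3 arrays were kept.

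The model had treatment and cell line as terms and used all 12 arrays (limma 3.58.1 in R 4.3.3, lmFit and eBayes, 6 residual degrees of freedom). Arrays are paired because they come from the same cell line, as the labels state. Contrasts were Combo minus IRAKi, CPI203 minus Control and their difference, and every adjusted p is limma's with Benjamini-Hochberg adjustment over all 13120 genes, two-sided, with a threshold of 0.05. An error after ± is the SE of the change unless SD is written, and the SE uses the spread pooled over all 12 arrays. The procedure was tested on simulated data.

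Genes were named by rule: the 12 largest changes each way among calls with the same sign in every line, up to 4 called members of each list in each direction, up to 2 members of each list nearest to 0, all members of the BET, MYC network and MYD88-IRAK lists, and the extremes of the difference test. The members and the 22 lists were chosen with earlier results of these data known. Alternatives changed the probe set rule, filter, scaling, variance model, pairing, and arrays used. Promoter windows come from RefSeq (GRCh38.p14). Probe sets with several genes or none entered no gene test.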

Additional observations from a re-analysis of the deposited data

Results flagged for a closer look

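For LINC00158, a long non-coding RNA gene, Combo minus IRAKi differed from CPI203 minus Control, the 1 gene that passed this test. The first comparison also spans label times of 24 h and 6 h, so the inhibitor and the time cannot be told apart. It read 5.21, 5.79 and 4.76 in Combo and 5.67, 5.79 and 5.2 in IRAKi, and 4.58, 4.86 and 4.36 in CPI203, against 7.02, 7.03 and 6.86 in Control. The change was -0.30 ± 0.15 in Combo against IRAKi and -2.37 ± 0.15 in CPI203 against Control, and the difference was 2.07 (limma, adjusted p = 0.0366). IRAKi already lay below Control in each line. The adjusted p was 0.229 without the OCI-LY10 IRAKi array, 0.0548 after scaling to the poly-A spike-ins, and 0.851, 0.342 and 0.552 without OCI-LY3, OCI-HBL1 or OCI-LY10, over a range of 0.0150 to 1 across all alternatives.

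Probe sets outside the gene tests also changed between Combo and IRAKi. Of 1634 probe sets with no named gene, 207 were called (12.7%; 121 higher, 86 lower), and of 860 with several genes, 71 were called (8.26%; 32 higher, 39 lower).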

How the results depend on the processing

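No named gene that was called changed its sign, but medians of lists near 0 did, and the split of calls moved. Under poly-A scaling the medians were -0.10 for heat shock, -0.205 for cholesterol, -0.23 for NRF2 and -0.25 for the MYC network, and calls for CPI203 against Control were 165 higher and 1530 lower, against 908 and 815. Without OCI-LY3 the medians were 0.056 for NF-kB and 0.024 for the plasma cell list, and without OCI-LY10 they were -0.032 for cholesterol and -0.045 for the MYC network. Without the OCI-LY10 IRAKi array the medians of cholesterol and the MYC network were -0.014 and -0.0079. Those of the plasma cell, interferon and heat shock lists were then -0.24, -0.53 and 0.056, with no change of sign. The MYC network (median centring, cyclic loess), NRF2 (cyclic loess) and plasma cell (no filter) medians also changed sign, within 0.02 of 0. The 2456 calls for Combo against IRAKi stayed within 1.5 times of that count with averaged probe sets, no filter, the 60th percentile filter, median centring, cyclic loess, a trended robust variance, array weights and poly-A scaling (2135 to 2850). They fell to 977 with a fit of only the 2 groups, 1487 without the OCI-LY10 IRAKi array and 563 when a change of at least 2-fold was also required. The CPI203 against Control count of 1723 fell to 1194 and 1580 under the first and second of these and to 380 at 2-fold. Leaving out 1 line gave 526 to 1704 calls for Combo against IRAKi, 216 to 720 for CPI203 against Control, and 0 for the difference (limma, 763 to 907 at an unadjusted p below 0.05).

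Without the replicate block, that is, with the pairing by cell line ignored, limma called 7 genes for Combo against IRAKi (1299 at an unadjusted p below 0.05), 4 for CPI203 against Control (937) and 0 for the difference (146). The difference also gave 0 calls without the OCI-LY10 IRAKi array (1051 unadjusted) and under poly-A scaling (436). The causes were not tested. Each group has 3 arrays, each from a different line, and probe sets near background understate changes.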
